A study of Rattus norvegicus with 10 samples.

Results

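The 5 arrays described here compared adult rat cardiomyocytes exposed to full-length fractalkine with cells that received bovine serum albumin (BSA), and they were chosen by their titles from the 10 arrays of the series. On each array, RNA of treated cells and RNA of control cells from a shared isolation were hybridised together in the dyes Cy3 and Cy5. Treated RNA was in Cy5 on arrays 1 and 2 and in Cy3 on arrays 3, 4 and 5. Exposure lasted 24 hours, although the label of the control RNA on array 1 gives no time. The other 5 arrays tested a fragment that holds the chemokine domain alone, residues 25 to 100, for 24 hours against the same kind of control, with the dyes placed in the same way. The isolations numbered 3, and none is tied to an array by the labels. The series text counts 5 treated and 5 control samples for all 10 arrays, so some arrays may share RNA, and p-values here reflect only how far arrays varied, which may include technical variation.

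Fractalkine (CX3CL1) is a chemokine that is made as a membrane protein with its chemokine domain on a mucin-like stalk. The metalloproteases ADAM10 and ADAM17 cut the stalk and release a soluble form. Its receptor is CX3CR1, a G protein-coupled receptor best known from monocytes, microglia and some lymphocytes, and integrins can also bind the chemokine domain. Cardiomyocytes isolated from adult hearts are contractile cells with many mitochondria, and such preparations can also hold fibroblasts, endothelial cells, smooth muscle cells and leukocytes.

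Each array held 44290 deposited log ratios. They were read as Cy5 over Cy3, and the sign was turned on arrays 3, 4 and 5, so that a positive turned log ratio stands for more RNA in treated cells under that reading. No source used here gave the direction of the deposited ratio or the base of its logarithm. With the opposite direction, Cy3 over Cy5, every sign below would be reversed. The reading as treated over control is given as an alternative. A ratio carries no level, so whether a marker gene was detected was not analysed here.

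The deposited probe numbers and the numbers of the platform annotation did not run over the array in the same order. Under the numbers as deposited, spots annotated with the same accession had unrelated log ratios: for 24 accessions spotted 8 to 14 times, 257 spots and 1262 pairs in all, the Spearman correlation of the paired spots lay between -0.021 and 0.018 on the 5 arrays. The array has 430 rows and 103 columns of spots, and 1504 regular orders of this grid were compared on the same pairs. In 1 of them the correlation was 0.66, 0.76, 0.57, 0.99 and 0.69 on arrays 1 to 5. Averaged over all 10 arrays it was 0.51, against 0.038 for the next best order. On 4555 pairs from 3187 other accessions, which took no part in the choice, the correlation was 0.16 to 0.30 on the 5 arrays in the recovered order, against -0.012 to 0.0072 with the numbers as deposited. A shift of the recovered order by 1 spot in either direction left -0.015 to 0.031 on these pairs. Genes are named below through the recovered order, and a probe is cited by its deposited number. The naming is firmer for the repeated spots than for genes with a single spot: the mean correlation of same-symbol spots over the 10 arrays was 0.063, against -0.006 as deposited, and both lie under the limit of 0.3 that had been set for naming genes. On this measure the 3187 other accessions gave 0.13, also under the limit.

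**Figure D1:**
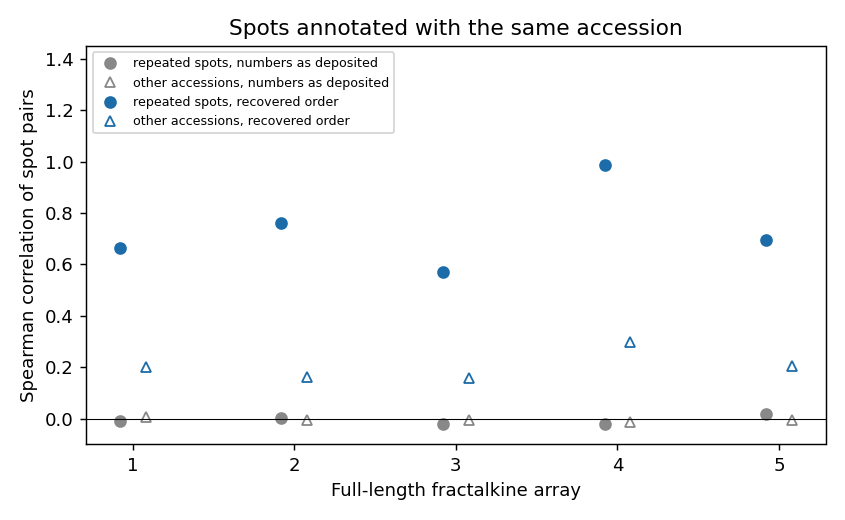
Spearman correlation (y axis) between pairs of spots annotated with the same accession on each full-length fractalkine array (x axis). Filled circles are the 24 accessions with repeated spots and open triangles are the 3187 other accessions. Grey marks, with the numbers as deposited, lie near 0 on every array, and blue marks, in the recovered order, lie at 0.57 to 0.99 for repeated spots and at 0.16 to 0.30 for the others.

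The 5 arrays differed in spread and did not all run in the same direction. The standard deviation over probes was 0.17, 0.16, 0.15, 0.31 and 0.21 on arrays 1 to 5. Array 4 held 3508 log ratios beyond 0.5 in size, while the other arrays held 257 to 1137. Array 4 also held 66 values beyond 2 in size, of which 64 were above 2 as deposited, against 1 to 11 on each of the others. Turned log ratios of arrays 1, 2, 3 and 4 correlated positively in all 6 pairs, with Pearson r from 0.12 to 0.37 across all probes. These pairs include both dye orientations. Array 5 correlated at -0.087, 0.12 and -0.015 with arrays 1, 2 and 3. Arrays 4 and 5, which carry treated RNA in the same dye, correlated at -0.37, so that their direction relative to each other is not settled, and counts are therefore also given with either array turned. The correlation of this pair was -0.376 after the trend with position on the array was removed.

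Genes with repeated spots showed the same opposition more sharply than the mass of probes. Over the medians of the 24 genes, arrays 4 and 5 correlated at -0.71, and arrays 1 and 4 at 0.68. Over 1044 probes annotated to olfactory receptors, a gene family expressed mainly in the sensory neurons of the nose, the 10 pairs of arrays correlated between -0.045 and 0.11. Turned values of equal sign on arrays 1 to 5 were shown by 4615 probes (10.4%), whereas 5081 probes (11.5%) had 1 sign on arrays 1 to 4 and the opposite sign on array 5. An even spread over the sign patterns would give 6.25% in each. The first principal component held 51.7% of the variance, with a loading of 0.90 for array 4 and -0.32 for array 5. The arrays were not scaled for it, so array 4, with the largest standard deviation at 0.31, weighs most. These correlations run across probes, which are not independent replicates, and are given as a description.

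**Figure D2:**
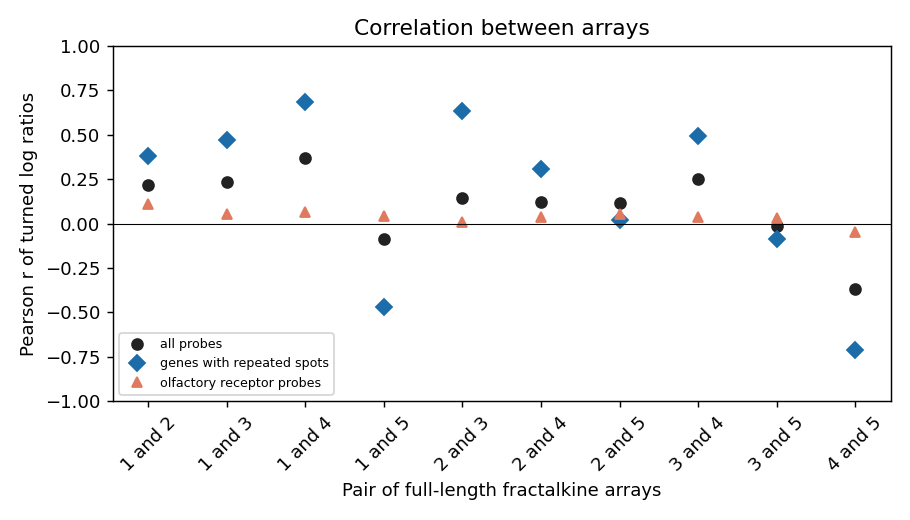
Pearson r (y axis) of turned log ratios for each pair of full-length fractalkine arrays (x axis), over all 44290 probes (circles), over the 24 genes with repeated spots (diamonds) and over 1044 olfactory receptor probes (triangles). All 6 pairs among arrays 1 to 4 lie above 0, and arrays 4 and 5 lie at -0.37 over all probes and at -0.71 over the genes with repeated spots.

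The repeated spots show how well a single array measured a gene and how far the arrays then differed. The median standard deviation among spots of a gene was 0.083 to 0.12 on the 5 arrays. The 10 spots of Ldha, the muscle-type subunit of lactate dehydrogenase, had medians of -0.20, -0.32, 0.047, -0.41 and 0.18 on arrays 1 to 5, with spot standard deviations of 0.035 to 0.11. Within an array the spots of Ldha lay close together, while the arrays ranged from clearly negative to positive. Med16, a subunit of the Mediator complex that links transcription factors to RNA polymerase II, had medians of -0.25, -0.27, -0.082, -0.63 and 0.18. Tcf12, a helix-loop-helix transcription factor, had medians of 0.23, 0.20, 0.25, 0.69 and -0.28. In both genes arrays 1 to 4 shared a sign and array 5 had the other. Calb1, which encodes the calcium-binding protein calbindin, spanned the widest range, from -0.46 on array 5 to 1.1 on array 4.

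Of the 24 genes, 3 had positive medians on all 5 arrays, 2 had negative medians on all 5 and 19 were mixed. The positive genes were Ndfip2, an adaptor of Nedd4-family ubiquitin ligases, Nat1, an arylamine N-acetyltransferase, and Napepld, an enzyme of N-acylethanolamine synthesis. Ndfip2 had medians of 0.33, 0.16, 0.24, 0.41 and 0.088 over its 10 spots, a mean of 0.24 ± 0.13 (SD, n = 5 arrays). Nat1 and Napepld stayed closer to 0, with means of 0.079 ± 0.049 and 0.068 ± 0.051. The negative genes were the chemokine gene Cxcl3 at -0.053 ± 0.042 and Ppp2r2b, a regulatory subunit of protein phosphatase 2A, at -0.077 ± 0.032. Of all probes, 5.6% were positive and 4.82% negative on all 5 arrays, and these 5 genes were named after their values were seen. The medians of arrays 4 and 5 had opposite signs in 18 of the 24 genes. Among the 13 genes beyond 0.1 in size on array 4, array 5 had the opposite sign in 10.

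**Figure D3:**
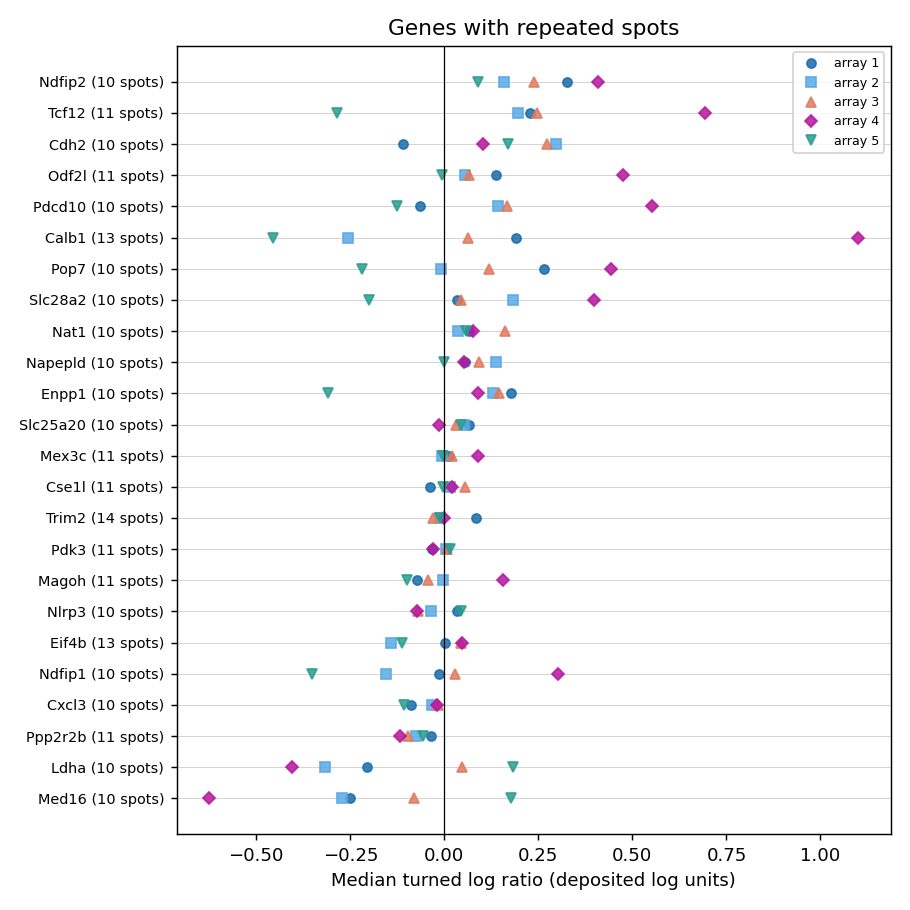
Median turned log ratio (x axis, deposited log units) of the 24 genes with repeated spots (y axis, with the number of spots), with a mark for each full-length fractalkine array. Ndfip2 lies above 0 on all 5 arrays, and for Tcf12, Calb1, Ldha and Med16 the marks of arrays 4 and 5 lie on opposite sides of 0.

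The main comparison asked which transcripts differed between cells exposed to full-length fractalkine and control cells. No probe passed: 0 of 44290 probes (0%) had an adjusted p under 0.05 in limma, where the lowest value reached was 0.159. At an unadjusted p under 0.05 there were 3438 probes (7.76%), 1822 of them positive (4.11%) and 1616 negative (3.65%). The median size of a log ratio was 0.057, and a probe's 95% interval extended 0.159 on each side at the median. That interval lay within 0.5 on both sides of 0 for 43241 probes (97.6%) and within 0.25 for 29021 (65.5%). If the deposited values are instead read as treated over control, the counts are 0 at the adjusted and 625 at the unadjusted p.

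Log ratios beyond 0.5 in size were found for 131 probes, 126 negative and 5 positive. Among the positive probes, which were named after their values were seen, Mb probe 23161 alone had a gene and values above 0.3 on every array. Mb encodes myoglobin, the oxygen-binding protein of muscle. Its turned log ratios were 0.43, 0.61, 0.36, 1.11 and 0.32, for a fitted log ratio of 0.55 with a standard error of 0.14 and an adjusted p of 0.262 in limma. Hacl1 probe 14692, for an enzyme of peroxisomal fatty acid oxidation, reached 2.1 on array 1 and lay between -0.11 and 0.28 on the other arrays, and its further probes had log ratios of -0.045 and 0.056. Probes 1993, 1466 and 40415 carried no gene name. Beyond 1 in size lay Dnm3 alone, for the membrane-scission protein dynamin 3, with -5.96 on array 4 and -0.30 to -0.047 elsewhere.

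The 10 probes with the smallest p on the positive side, among those with a gene symbol and positive on all 5 arrays, belonged to Psmd6, Hcrt, Pno1, Eid1, Akap10, Anxa1, Adra1b, Uchl5, Hikeshi and Nedd9. Among the 20 smallest p-values of the whole table, some belonged to probes without a gene, such as 35700 at 0.35 and 9170 at -0.75. Psmd6 encodes a subunit of the regulatory particle of the proteasome, the complex that degrades ubiquitinated proteins. Its probe had turned log ratios of 0.52, 0.59, 0.49, 0.36 and 0.25. The fitted log ratio was 0.45 ± 0.066 (SE from the fit of all 10 arrays), with an adjusted p of 0.159 in limma. Uchl5, a deubiquitinase of the same particle, had values of 0.29, 0.35, 0.31, 0.49 and 0.28 and a log ratio of 0.35 ± 0.065. Both genes were measured by 2 further probes each, at -0.052 and 0.10 for Psmd6 and at -0.033 and 0.023 for Uchl5. None of these 4 further probes had an unadjusted p under 0.05.

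For Pno1 and Eid1 the further probes also lay above 0. Pno1 is a factor of small ribosomal subunit assembly, and its probe had values of 0.38, 0.48, 0.38, 0.74 and 0.37, a log ratio of 0.45 ± 0.071 (adjusted p 0.159 in limma). Its 3 further probes had log ratios of 0.18, 0.046 and 0.13. Eid1, an inhibitor of the acetyltransferase p300, had values of 0.32, 0.42, 0.42, 0.74 and 0.36 and a log ratio of 0.44 ± 0.068 (adjusted p 0.159 in limma). Its 2 further probes had 0.15 and 0.22. Array 4 was the highest for both genes, and all 5 arrays lay above 0.3.

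Hcrt, the precursor of the hypothalamic neuropeptides called orexins, had the largest log ratio of these 10 genes. Its single probe had values of 0.24, 0.66, 0.37, 0.48 and 0.75, a log ratio of 0.50 ± 0.076 (adjusted p 0.159 in limma). Anxa1 encodes annexin A1, a phospholipid-binding protein with anti-inflammatory actions. Its probe had values of 0.52, 0.45, 0.38, 0.59 and 0.11 and a log ratio of 0.41 ± 0.075, whereas its 3 further probes had 0.080, 0.021 and -0.087. Adra1b, the alpha-1B adrenergic receptor, had 0.42, 0.27, 0.61, 0.57 and 0.17 on the probe with the smallest p, a log ratio of 0.41 ± 0.076. A second Adra1b probe was negative on all 5 arrays at -0.23 ± 0.070, so that these probes of the receptor disagreed in sign. Akap10, an anchor of protein kinase A, Hikeshi, a nuclear import carrier of heat shock protein 70, and Nedd9, a scaffold of adhesion signalling, had log ratios of 0.41, 0.40 and 0.33. The adjusted p of these 3 genes, and of Anxa1, Adra1b and Uchl5, was 0.262 in limma.

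On the negative side the corresponding genes were Or12e9, Myh14, Rtn4, Maf1, RT1-CE4, Pdlim5, Ogfr, Junb, Mx2 and Idh2, each with an adjusted p of 0.262 in limma. Maf1, a repressor of RNA polymerase III, had the log ratio farthest from 0 at -0.52 ± 0.11, with values of -0.47, -0.48, -0.75, -0.53 and -0.45. Pdlim5, a PDZ and LIM domain protein of the muscle Z-disc, had the smallest spread, with -0.26, -0.33, -0.29, -0.28 and -0.39 and a log ratio of -0.30 ± 0.062. The 5 arrays of Pdlim5 lay close together, while its 3 further probes had log ratios of 0.057, 0.068 and 0.0001. Of the 2 further Maf1 probes, 1 was negative on all arrays at -0.17 ± 0.066 and the other lay at 0.046 ± 0.080.

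Junb, a subunit of the AP-1 transcription factor, had values of -0.29, -0.41, -0.16, -0.75 and -0.55 on its single probe, a log ratio of -0.40 ± 0.086. Myh14, a nonmuscle myosin heavy chain, was negative on all arrays on both of its probes, with log ratios of -0.39 ± 0.075 and -0.26 ± 0.081. RT1-CE4, a class I histocompatibility gene, was likewise negative on both probes, at -0.40 ± 0.083 and -0.20 ± 0.072. Mx2, an interferon-induced GTPase, had -0.35 ± 0.076 on the probe with the smallest p and 0.13 ± 0.094 on the other. Rtn4, a reticulon of the endoplasmic reticulum also known as Nogo, had -0.37 ± 0.074 and 0.26 ± 0.090 on its pair of probes. Idh2, the mitochondrial NADP-dependent isocitrate dehydrogenase, had -0.47 ± 0.10 and 0.31 ± 0.14. Ogfr, the opioid growth factor receptor, lay at -0.48 ± 0.10 and the olfactory receptor gene Or12e9 at -0.37 ± 0.069, each on a single probe.

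Of the 20 genes, 16 had further probes, 28 in all. These lay between -0.26 and 0.31, and 16 of the 28 had the sign of the probe chosen for its p. The 20 probes were chosen by p and by sign on these arrays, so their agreement across the arrays is part of the choice. In a fit of the full-length arrays alone, the adjusted p was 0.717 in limma for each of the 20. With array 5 turned, the 20 log ratios kept their signs at sizes of 0.16 to 0.43, and with array 4 turned at sizes of 0.13 to 0.32, against 0.30 to 0.52 as reported.

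**Figure D4:**
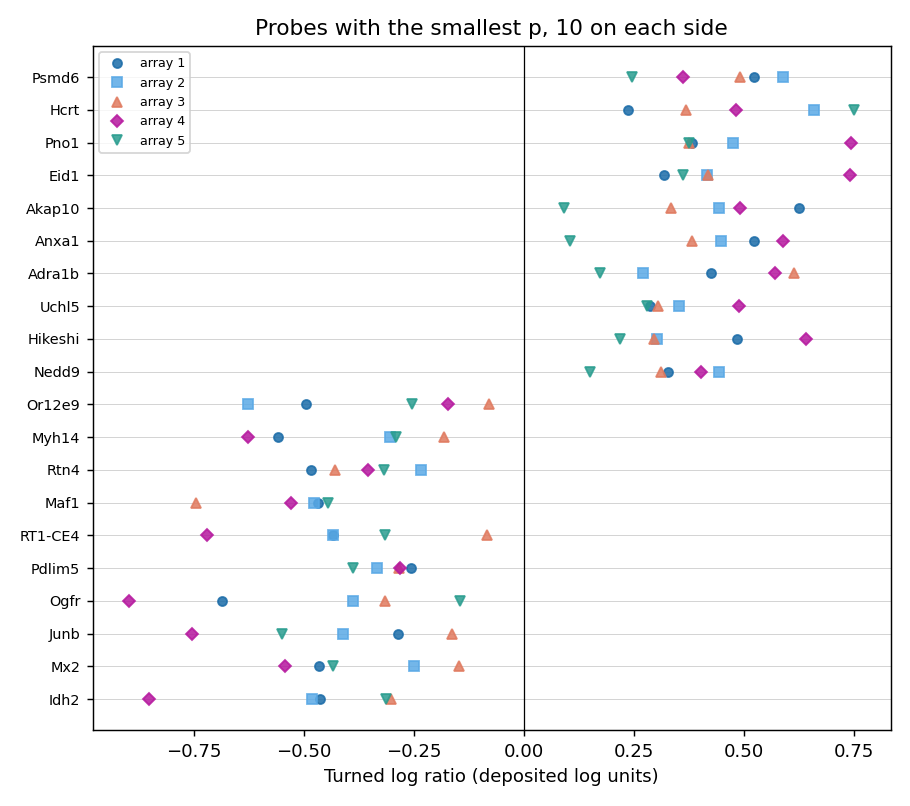
Turned log ratio (x axis, deposited log units) of the 10 probes with the smallest p on each side among probes with a gene symbol and the same sign on all 5 full-length fractalkine arrays (y axis), with a mark for each array. Array 5 is closest to 0 for Psmd6, Pno1, Akap10, Anxa1, Adra1b, Uchl5, Hikeshi, Nedd9, Maf1 and Ogfr. Array 4 is farthest from 0 for Pno1, Eid1, Anxa1, Uchl5, Hikeshi, Myh14, RT1-CE4, Ogfr, Junb, Mx2 and Idh2.

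The number of called probes depended on array 5. Without it, limma called 351 probes (0.793%) at an adjusted p under 0.05, 101 positive and 250 negative. Without any other single array of either form, 0 passed, with smallest adjusted p of 0.178 to 0.636. On array 5 itself, 80 of the 351 probes (22.8%) had the sign of the log ratio fitted without it and 271 had the opposite sign. Of all probes with 1 sign on arrays 1 to 4, 4615 had that sign on array 5 and 5081 the opposite sign. With the values of array 5 turned 148 passed, with those of array 4 turned 0 passed, and with arrays 4 and 5 both left out 1 passed, Sbno2 probe 26841. With array weights 484 probes (1.09%) passed, where array 4 had a weight of 0.545 and array 5 of 0.669 against 1.53 to 2.25 for arrays 1, 2 and 3.

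Among the probes with a gene symbol that were called without array 5, the smallest p-values on the positive side belonged to Anxa1, Myh6, Psmd6, Akap10, Pno1, Gimap5, Eid1, Dgke, Adra1b and Ebag9, and on the negative side to Fxr2, Sbno2, Rnf125, Myom2, Flnc, Trpc4ap, Bcam, Itm2c, Gnb2 and Gapdh-ps1. Myom2, Flnc and Bcam are described after their values were seen. Myom2 probe 23062, for a myomesin of the sarcomeric M-band, had values of -0.55, -0.62, -0.53 and -1.46 on arrays 1 to 4 and -0.025 on array 5. Its log ratio was -0.79 without array 5 (adjusted p 0.0191 in limma) and -0.61 with it (adjusted p 0.262), and its 2 further probes had -0.40 and -0.0068 with all arrays. Flnc, the muscle filamin that crosslinks actin at the Z-disc, had -1.03, -0.43, -0.35 and -1.15 and then -0.015 on array 5. Bcam, a laminin-binding adhesion molecule, had -0.49, -0.51, -0.47 and -1.34 and then 0.11. For these 3 genes arrays 1 to 4 lay well below 0, and array 5 lay within 0.11 of 0.

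The fractalkine receptor and the usual cardiac stress genes did not pass the threshold either. Cx3cr1 had values of -0.20, 0.13, -0.013, -0.16 and 0.093. Its log ratio was -0.048 ± 0.079 (SE from the fit of all 10 arrays, adjusted p 0.95 in limma). Nppa, the gene of atrial natriuretic peptide, had 0.28, -0.057, 0.13, -0.029 and -0.026, a log ratio of 0.078 ± 0.069 (adjusted p 0.875 in limma). The 3 probes of Nppb, for brain natriuretic peptide, had log ratios of 0.058, -0.017 and 0.16. Both natriuretic peptide genes had positive and negative arrays. Myh7, the slow myosin heavy chain, was positive on all 5 arrays, at 0.016, 0.16, 0.23, 0.46 and 0.047, with a log ratio of 0.17 ± 0.068 (adjusted p 0.537 in limma). Myh6 encodes the fast myosin heavy chain, the main one of the adult rat ventricle. Its probe 33780 had 0.25, 0.48, 0.67, 0.96 and 0.11, a log ratio of 0.46 ± 0.10 (adjusted p 0.262 in limma), and its probe 14563 had 0.11 ± 0.073.

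Among genes of the fractalkine pathway, measured with 8 probes of 5 genes and without a probe matched to Itgav, 1 probe had an unadjusted p under 0.05, on the negative side, against 3.65% of all probes. It was a probe of Cx3cl1, the gene of fractalkine itself, and it was named after its values were seen. This probe, 28353, had values of -0.34, -0.47, -0.25, -0.43 and 0.19 and a log ratio of -0.26 ± 0.087 (adjusted p 0.426 in limma). Arrays 1 to 4 lay below 0 and array 5 above it, and it was the member of this list that passed without array 5. The second Cx3cl1 probe lay at 0.011, -0.012, -0.086, 0.17 and -0.53, with array 5 the lowest. The shedding proteases and the integrin subunit Itgb3 had log ratios of -0.15 for Adam17, -0.011 for Itgb3 and -0.014 to 0.10 for the 3 probes of Adam10.

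Markers of the cell types that a cardiomyocyte preparation can hold gave no probe past the threshold. Of 13 cardiomyocyte probes, 4 had a positive log ratio with an unadjusted p under 0.05, against 4.11% of all probes, and the median was 0.097, against 0.0005 over all probes. Beside Mb and Myh6 these were Pln, for the calcium pump inhibitor phospholamban, at 0.17 ± 0.067 on probe 118, and Tnni3, for cardiac troponin I, at 0.22 ± 0.079. The list held probes that went apart: a second Mb probe lay at -0.022 ± 0.087, and the Actc1 probe 39068, for cardiac actin, ran from -1.08 on array 4 to 0.70 on array 5. The median of the list was -0.051 on array 4 and 0.25 on array 5. It was 0.020 with array 5 turned, 0.050 without array 5, 0.15 without array 4 and -0.019 read as treated over control.

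Markers of the other cell types had 0 probes with an unadjusted p under 0.05, against 7.76% of all probes. Their median log ratios were 0.0096 for 8 fibroblast probes, 0.036 for 7 endothelial probes, 0.068 for 9 leukocyte probes and -0.023 for 2 probes of Cnn1, the smooth muscle gene that could be matched. By array, the medians ran from -0.058 to 0.032 for fibroblast, from -0.046 to 0.094 for endothelial and from 0.013 to 0.11 for leukocyte markers. Read as treated over control, the medians were 0.045, 0.060, -0.0075 and 0.013 for fibroblast, endothelial, leukocyte and smooth muscle probes, and with array 4 turned the endothelial median was -0.026. In mixed preparations fewer cells of a type and less RNA per cell cannot be told apart. Genes that NF-kB is known to switch on, such as Ccl2, Il6 and Vcam1, were measured with 9 probes, had a median log ratio of 0.066 and held 0 probes with an unadjusted p under 0.05, again against 7.76% of all probes. Their array medians were 0.18, 0.17, -0.028, 0.047 and -0.13, positive on the arrays with treated RNA in Cy5 and of both signs on the others.

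Larger gene families were added after the values were seen, and none of their probes passed the threshold. Glycolytic enzymes had a median log ratio of -0.14 over 38 probes, 10 of them spots of Ldha, and of -0.12 over the 18 genes. Of the 38 probes, 9 were negative and 1 positive with an unadjusted p under 0.05, against 3.65% and 4.11% of all probes. The negative probes included the Ldha spots 17231, 27965 and 36018 and the Gapdh probes 27138 and 35440. Spots of the same gene are not independent, so the count overstates the number of genes. Their medians were -0.17, -0.24, 0.030, -0.39 and 0.062 on arrays 1 to 5, negative on 3 arrays and slightly positive on 2. Aldoa, an aldolase, had -0.74, -0.51, -0.19, -1.17 and 0.29, a log ratio of -0.48 ± 0.15 (adjusted p 0.367 in limma). Gapdh, the glyceraldehyde phosphate dehydrogenase often used as a reference gene, had log ratios of -0.26 and -0.28 on its 2 probes, with array 3 near 0 on both. With array 4 turned the median of the glycolytic list was 0.0039, with array 5 turned -0.16, without array 4 -0.067, and read as treated over control -0.037.

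Subunits of complex I and of ATP synthase, both of the inner mitochondrial membrane, had mostly positive log ratios. Complex I, which passes electrons from NADH into the chain, was measured with 46 probes of 31 genes, and 35 log ratios (76.1%) were above 0, against 50.2% of all probes. With an unadjusted p under 0.05, 11 were positive and 1 negative, against 4.11% and 3.65% of all probes. The array medians of complex I were 0.15, 0.096, 0.030, 0.17 and 0.11, all above 0, and the median log ratio was 0.11, or 0.072 with array 5 turned, 0.059 with array 4 turned and 0.011 read as treated over control. Ndufa2 probe 17190 had 0.45, 0.23, 0.11, 0.29 and 0.60, a log ratio of 0.36 ± 0.11 (adjusted p 0.386 in limma), and the second Ndufa2 probe had 0.30 ± 0.12. Ndufs1, a core subunit with iron-sulphur clusters, was negative on all 5 arrays at -0.36 ± 0.099 (adjusted p 0.306 in limma). ATP synthase subunits had a median of 0.088 over 27 probes, with array medians from 0.019 to 0.14, and 5 positive and 1 negative with an unadjusted p under 0.05, against the same shares of all probes. Read as treated over control the ATP synthase median was 0.039. Atp5f1a was the negative 1 at -0.24 ± 0.096.

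Genes of the rat histocompatibility complex, which carry the prefix RT1, had a median log ratio of -0.070 over 51 probes. With an unadjusted p under 0.05, 15 were negative and 1 was positive, against 3.65% and 4.11% of all probes. No probe of the class II genes, whose names here start with RT1-B or RT1-D, was among them. Class II log ratios ran from -0.17 to 0.10. The positive RT1-S3 probe 2393 had a log ratio of 0.18, and the second RT1-S3 probe lay at -0.22. The array medians were -0.094, -0.13, 0.0022, -0.11 and -0.073. RT1-A2 had -0.39, -0.39, -0.018, -0.77 and -0.19, a log ratio of -0.34 ± 0.094 (adjusted p 0.298 in limma) on probe 4862, and -0.21 on its second probe. RT1-CE1 had -0.37, -0.30, -0.048, -0.76 and -0.14. The profiles of these 2 genes were nearly alike, with array 3 closest to 0 and array 4 farthest. Many RT1 class I genes are near-identical copies, so a transcript can bind probes of several of them and the probes are not independent. With array 4 turned the median of the RT1 list was -0.022, with array 5 turned -0.074, and read as treated over control -0.0028.

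Ribosomal protein genes had a median log ratio of 0.056 over 122 probes, 82 of them (67.2%) above 0, with 13 positive and 4 negative at an unadjusted p under 0.05, against 4.11% and 3.65% of all probes. The ribosomal median was 0.041 with array 5 turned and 0.031 with array 4 turned, and that of ATP synthase was 0.073 and 0.032. Read as treated over control the ribosomal median was 0.018, and without array 4 it was 0.036. Rpl29 probe 16766 was positive on all arrays at 0.33 ± 0.073 (adjusted p 0.262 in limma), whereas the 3 further Rpl29 probes had log ratios of -0.017, 0.074 and 0.13, each with arrays of both signs. Rps15 probe 18198 had -0.37, -0.22, -0.56, -1.59 and -0.047, and the second Rps15 probe had a log ratio of -0.0059. The ribosomal medians were -0.0016 on array 3 and -0.0025 on array 5 and lay between 0.053 and 0.11 on the others. Proteasome subunits, to which Psmd6 belongs, had a median of -0.019 over 65 probes, with 8 positive and 9 negative at an unadjusted p under 0.05, against the same shares of all probes. The proteasome median was 0.0012 without array 5 and -0.019 read as treated over control. Psmd11, a further subunit of the regulatory particle, had a probe negative on all 5 arrays at -0.22 ± 0.061 and 2 others at 0.12 and -0.022. Olfactory receptor probes had a median of -0.017 and array medians from -0.020 to -0.0084, and 3.45% of them had an unadjusted p under 0.05, against 7.76% of all probes.

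**Figure D5:**
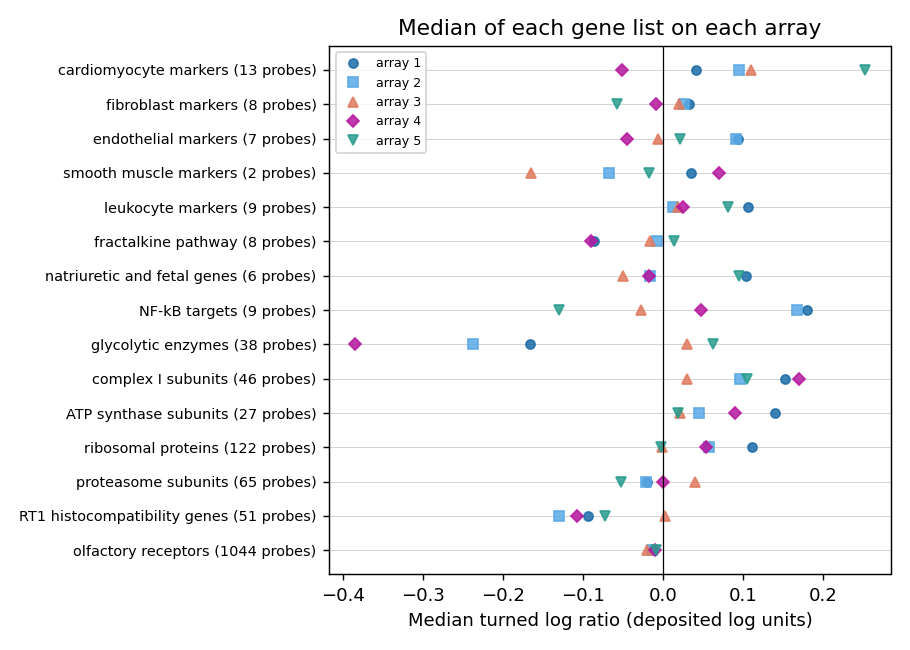
Median turned log ratio (x axis, deposited log units) of each gene list (y axis, with its number of probes) on each of the 5 full-length fractalkine arrays. Complex I medians lie above 0 on all 5 arrays, glycolytic medians range from -0.39 on array 4 to 0.062 on array 5, and olfactory receptor medians stay between -0.020 and -0.0084.

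The last comparison asked whether the response to full-length fractalkine differed from that to its chemokine domain. In the contrast of both forms, limma called 0 of 44290 probes (0%) at an adjusted p under 0.05, with 0.861 as the lowest, and 2375 probes at an unadjusted p under 0.05. The 95% interval of the difference reached 0.22 to either side at the median, so smaller differences could not be resolved. Beside the full-length log ratios, the domain log ratios were 0.31 for Psmd6, 0.78 for Hcrt, 0.11 for Pno1 and 0.27 for Eid1. For Pdlim5 the values were -0.30 and -0.30, a difference of -0.003 with an interval from -0.19 to 0.18. For Mb probe 23161 they were 0.55 and 0.56, and for Myh6 probe 33780 they were 0.46 and 0.31. Junb had -0.40 with the full-length protein and -0.055 with the domain. The difference was -0.35, with an interval from -0.60 to -0.091 and an adjusted p of 0.861 in limma. Junb was among the 20 probes chosen by p and sign on the full-length arrays, which favours full-length log ratios far from 0. Of these 20 probes, 10 had an unadjusted p under 0.05 for the difference in limma, against 2375 of all 44290. The Junb interval therefore cannot decide whether the forms differed for this gene. Complex I had a median of 0.11 beside -0.013 for the domain, and the glycolytic list -0.14 beside 0.0024, without a test of either list. Both sets of arrays may share control RNA, so no overlap of their signs is given.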

How the data were processed

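Total RNA was isolated with a Promega kit and labelled with an Agilent linear amplification kit, per the labels' protocols. The deposited table gives 1 value for each probe on each array, taken to be a log2 ratio. The sources used here did not give its base, direction, centring or normalization, and no scanner intensities were used, so the number of arrays limits the precision. Columns of the table not used numbered 0.

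All 10 arrays entered a single fit in limma (version 3.58.1, R version 4.3.3). Its terms were an effect for either form, multiplied by 1 or -1 for treated RNA in Cy5 or Cy3, and a dye effect shared by all arrays. Probes were called at an adjusted p (Benjamini-Hochberg over 44290 probes) under 0.05. The script was tested on simulated data. Of the probes, 23535 had 1 gene symbol, 48 several and 20707 none; 23488 of the first matched a current gene record, which updated 1 symbol. Position trends were removed with a running median over 15 spots in an alternative. The turned log ratio of an array is its deposited value, reversed where treated RNA carried Cy3, and the dye effect is not removed from it.

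The rule for named genes took the 10 smallest p-values per side among probes with a gene symbol whose turned values had equal signs on the 5 arrays, plus Cx3cr1, Nppa, Nppb, Myh6 and Myh7, provided that same-symbol spots correlated above 0.3. This condition was not met in either numbering, and under the rule no gene would be named. The repeated spots were used to choose the recovered order, so their agreement is part of that choice. Genes were named all the same on the evidence of the 3187 other accessions, with correlations of 0.16 to 0.30. This basis was chosen after the data were seen. The members and lists were chosen with earlier results of these data known. Alternatives were the other reading, other dye terms, centring, scaling, weights, robust empirical Bayes, leaving out the probes that varied least, averages per symbol or accession, a replicate block, arrays left out or turned, and dye labels exchanged.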

Additional observations from a re-analysis of the deposited data

Results flagged for a closer look

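Of 71 sets of 5 array values searched for a value far from the others, 8 held one. Chance alone gives about 1 in 20 for independent sets of normally distributed values. The sets searched here overlap, and 20 were probes chosen by p and sign on these arrays. The count therefore cannot show an excess over chance. Array 4 stood apart in its number of log ratios beyond 0.5, 3508 against 257 to 1137 on the other arrays, and in its number beyond 2, 66 against 1 to 11. Array 4 was also far above the others for Pno1 probe 15202, at 0.742 against 0.37 to 0.48, and for Eid1 probe 33532, at 0.74 against 0.32 to 0.42. Maf1 probe 31492 was lowest on array 3, at -0.746, with -0.53 to -0.45 on the others. Among genes with repeated spots, Enpp1, a nucleotide pyrophosphatase, had -0.31 on array 5 against 0.089 to 0.18 elsewhere. Mex3c, an RNA-binding ubiquitin ligase, had 0.091 on array 4 against -0.0049 to 0.020, and Trim2, a ubiquitin ligase, had 0.085 on array 1 against -0.031 to 0.0004.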

How the results depend on the processing

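The count of probes past the adjusted p was 0 with the other reading, without a dye term, with the full-length arrays alone, after centring, with robust empirical Bayes, after removal of position trends, with averages per symbol or accession, and with array 4 turned or given the other dye label. It was 52 with arrays scaled to the same spread, 484 with array weights, 36 without the probes of smallest spread, 148 with array 5 turned, 529 with the dye label of array 5 exchanged, 1 without arrays 4 and 5 (Sbno2) and 1 with a dye term per form (Arih2 probe 43426, with -1.9 and -2.2 on arrays 1 and 2, both named after their values were seen). With single arrays left out it ran from 0 to 351, the 351 without array 5. The cause of these changes was not tested. The replicate block, the array number that both forms share, gave 0 calls and an estimated correlation of -0.018, and it changed no other call. The numbers only name arrays and pair no samples by the labels. The contrast of both forms had 0 calls in every alternative where it was counted, apart from 1, Arih2 again, with a dye term per form. It was not counted with averages per accession or with the full-length arrays alone.

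The count with an unadjusted p under 0.05, 3438 as reported, was 625 read as treated over control, 6387 with array weights, 1096 with averages per symbol (fewer features), 2032 with array 4 turned and 2281 with array 4 given the other dye label. It was 5339 with the other dye label on array 5. It ran from 2066 (without full-length array 1) to 5037 (without array 5) with single arrays left out.

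The 20 probes chosen by p kept their sign under every alternative fitted per probe (averages per symbol or accession give them no value) apart from the reading as treated over control, where 13 turned: Hcrt -0.013, Pno1 -0.070, Eid1 -0.086, Adra1b -0.060, Uchl5 -0.030, Hikeshi -0.031, Myh14 0.0045, Rtn4 0.022, Maf1 0.089, Pdlim5 0.013, Junb 0.11, Mx2 0.036 and Idh2 0.039. The same reading gave -0.12 for Myh6 probe 33780, -0.080 for Myh7 and -0.096 for Nppb probe 17325. The 20 probes were chosen for small p and equal signs on the 5 full-length arrays. Their kept signs, and how many of them passed, follow in part from that choice. Of the 20, 20 passed with array weights, 15 after scaling, 14 without array 5, 6 without the probes of smallest spread, 2 with the dye label of array 5 exchanged and 0 with array 5 turned. Cx3cr1 ran from -0.14 to 0.0007 with single arrays left out and was 0.011 with array 4 turned, 0.049 with its label exchanged and 0.0054 without arrays 4 and 5. Nppb probe 12522 ran from -0.057 to 0.024 with single arrays left out. Nppb probe 3691 was -0.012 with array 5 turned and -0.035 with its label exchanged, Nppb probe 17325 was -0.10 with array 4 turned and -0.10 with its label exchanged, and Myh6 probe 14563 was -0.019 with the label of array 5 exchanged.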
